A study of Arabidopsis thaliana with 18 samples.

Results

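Salicylic acid (SA) and the pipecolic acid pathway act as signals of systemic plant immunity, and 10 Arabidopsis genes that make, signal or mark them were followed here in seedlings given jasmonic acid (JA). They were chosen by locus identifier: ICS1, EDS5 and PBS3 for SA synthesis, EDS1 and PAD4 for signalling, ALD1 and FMO1 for the pipecolic acid branch, and PR1, PR2 and PR5 as pathogenesis-related (PR) outputs. All 10 were among the 22209 genes listed in the expression tables. Of these, 6 had at least 1 FPKM (fragments mapped per kilobase of transcript, scaled to the size of the library) in at least 3 libraries and were tested, while PR2, PR5, PBS3 and FMO1 did not reach that level.

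The 18 libraries came from whole 6-day-old seedlings of the Col-0 wild type (WT) and of the mutant ecap-2. Seedlings were moved to plates with 50 µM JA and collected after 0, 1 or 3 h, with 3 libraries in each of the 6 groups, and the 0 h groups are labelled untreated in both genotypes. Their titles differ, with control for the WT libraries and JA treatment for 0 h for those of the mutant. There was no transfer without JA at 1 or 3 h, so the effects of JA, of the move and of the time of day cannot be told apart. ECAP is described in the series title as an adaptor that links JAZ repressors of JA signalling to the co-repressor TPR2; the type of lesion in ecap-2 is not given in the sources used here. Nothing in the labels ties the 3 libraries of a group to different batches of plants; every p-value below therefore reflects library-to-library spread alone, which may be technical.

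In Arabidopsis, most pathogen-induced SA comes from chorismate, which ICS1 turns into isochorismate in the plastid. Isochorismate is exported to the cytosol by EDS5 and joined to glutamate by PBS3, after which the conjugate breaks down to SA. EDS1 and PAD4 form a lipase-like complex that passes signals from immune receptors and raises ICS1 and ALD1 expression. ALD1 makes the precursor of pipecolic acid from lysine, and FMO1 hydroxylates pipecolic acid to N-hydroxypipecolic acid (NHP), the mobile signal of systemic acquired resistance. PR1, PR2 and PR5 encode secreted antimicrobial proteins and serve as markers of SA signalling, which JA signalling often opposes.

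The windows of 300 bases upstream of 3 members are shown because these genes carry clear patterns below: ALD1 was higher in ecap-2 and rose there on JA, EDS5 rose most on JA, and ICS1 was lower in ecap-2. They were read from RefSeq's TAIR10.1 assembly and run 5′ to 3′ on the strand of the gene, from chr2:5768117-5768416 (plus strand) for ALD1, chr4:18185137-18185436 (plus strand) for EDS5 and chr1:28069995-28070294 (plus strand) for ICS1. Capitals mark TTGAC, the core of the W-box that WRKY factors bind.
ALD1: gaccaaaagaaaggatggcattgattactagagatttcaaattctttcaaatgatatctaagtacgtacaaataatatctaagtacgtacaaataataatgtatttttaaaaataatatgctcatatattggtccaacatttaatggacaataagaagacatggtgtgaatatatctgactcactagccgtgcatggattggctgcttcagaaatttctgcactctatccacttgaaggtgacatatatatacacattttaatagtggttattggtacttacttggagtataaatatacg
EDS5: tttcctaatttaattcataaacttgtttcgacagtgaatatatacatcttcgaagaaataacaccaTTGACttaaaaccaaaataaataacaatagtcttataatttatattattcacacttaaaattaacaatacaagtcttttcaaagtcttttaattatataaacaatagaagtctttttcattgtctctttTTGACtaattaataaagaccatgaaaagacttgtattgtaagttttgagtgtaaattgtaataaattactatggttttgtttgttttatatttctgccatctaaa
ICS1: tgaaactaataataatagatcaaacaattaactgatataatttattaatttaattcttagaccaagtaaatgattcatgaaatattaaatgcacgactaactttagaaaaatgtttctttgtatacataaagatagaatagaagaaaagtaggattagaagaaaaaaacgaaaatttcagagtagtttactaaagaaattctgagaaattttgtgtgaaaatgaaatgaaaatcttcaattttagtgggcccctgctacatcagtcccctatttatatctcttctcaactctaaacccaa
Both strands were searched for TTGAC, for TGACG, the core bound by TGA factors, and for CACGTG, the G-box bound by MYC2. The window of EDS5 held 2 TTGAC, starting at positions -234 and -105 counted back from the first base of the gene. No TGACG or CACGTG was found in these 3 windows, and none of the 3 motifs in those of ALD1 and ICS1. TTGAC occurred in 50.8% of the 22122 windows of this length upstream of listed genes, TGACG in 21.9% and CACGTG in 7.76%. Of the other members searched, FMO1 had 1 CACGTG at -35, PR5 had 1 TTGAC at -165, EDS1 had 1 TTGAC at -96 and 1 TGACG at -293, and PR2 had 1 of each motif, its TTGAC and TGACG overlapping. PBS3 and PAD4 had none. The window of EDS1 overlaps a neighbouring gene, AT3G48100.

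ECAP (AT3G58110) itself averaged 14.2 ± 1.14 FPKM in WT (SD, n = 9) and 2.59 ± 0.169 FPKM in ecap-2 (SD, n = 9), with no overlap. The total of all FPKM values was 687996 to 765209 in WT and 760383 to 912834 in ecap-2. Libraries of a group correlated at 0.9839 to 0.9918 over tested genes and libraries of different groups at 0.8989 to 0.9723, and no library stood apart from its group. The summed level of 4 shoot markers was 23032 to 27958 FPKM in WT and 31474 to 40550 FPKM in ecap-2. The summed level of 6 root markers was 2221 to 4249 FPKM in WT and 2767 to 5364 FPKM in ecap-2, highest at 3 h in both. Most of that sum was PYK10 (2020 to 4090 FPKM in WT, 2610 to 5020 FPKM in ecap-2), and the root markers did not move together. From 0 h to 3 h, 2 of them rose and 3 fell in WT (median -0.25), and 3 rose and 1 fell in ecap-2 (median 0.31). None of these 10 markers was at 0 in any library, and on average over times 3 of 4 shoot and 5 of 6 root markers were higher in ecap-2, while IRT1 was lower. The part of these shifts in the differences between genotypes below was not tested. In whole seedlings, fewer cells of a type and less RNA per cell cannot be told apart.

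ICS1 (AT1G74710; chromosome 1, 28070295 to 28074177), which commits chorismate to SA, was lower in ecap-2 than in WT at every time. In WT its level was 8.75, 10.9 and 10.1 FPKM at 0 h, 7.13, 9.41 and 8.15 FPKM at 1 h, and 11.5, 10.7 and 10.8 FPKM at 3 h. In ecap-2 it was 6.27, 6.87 and 6.95 FPKM at 0 h, 5.66, 4.96 and 6.51 FPKM at 1 h, and 7.41, 7.06 and 6.68 FPKM at 3 h. At each time the highest ecap-2 library was below the lowest WT library. The ratio of ecap-2 to WT means was 0.676 at 0 h, 0.694 at 1 h and 0.641 at 3 h. On the log2(FPKM + 1) scale the difference was -0.50 ± 0.10 (SE) at 0 h, -0.46 ± 0.10 at 1 h and -0.58 ± 0.10 at 3 h (limma, adjusted p = 0.00084, 0.0019 and 0.00014). No change of ICS1 from 0 h passed the threshold in either genotype, and the change at 1 h was -0.24 ± 0.10 in WT (limma, adjusted p = 0.074; 0.031 without WT 0 h replicate 1 and 0.022 without WT 1 h replicate 2). That change also passed with a common total (-0.28, adjusted p = 0.029) and with quantile normalization (-0.29, adjusted p = 0.021). From 1 h to 3 h ICS1 rose by 0.39 ± 0.10 in WT (limma, adjusted p = 0.0084) and by 0.27 ± 0.10 in ecap-2 (limma, adjusted p = 0.043), the latter lost in several alternatives, as when ecap-2 1 h replicate 2 was left out (0.19, adjusted p = 0.2).

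EDS5 (AT4G39030 on chromosome 4, 18185437 to 18189224), the exporter of the plastid envelope in SA synthesis, was the member that rose most on JA. In WT it went from 10.2, 9.66 and 8.7 FPKM at 0 h to 26.1, 31 and 34.8 FPKM at 1 h and 21.4, 23.1 and 20.1 FPKM at 3 h. In ecap-2 it went from 8.92, 6.71 and 8.11 FPKM to 39.9, 39.3 and 44.2 FPKM and then 23.5, 25.7 and 24.1 FPKM. In both genotypes the 3 times did not overlap, with the highest level at 1 h. The mean at 1 h was 3.22 times that at 0 h in WT and 5.19 times in ecap-2; at 3 h the ratios were 2.27 and 3.09. The log2 changes at 1 h were 1.58 ± 0.10 in WT (limma, adjusted p = 2.4e-09) and 2.25 ± 0.10 in ecap-2 (limma, adjusted p = 2.2e-11). Their difference of 0.66 ± 0.15 did not pass the threshold (limma interaction, adjusted p = 0.064, from 0.033 to 0.17 over the alternatives), although the level at 1 h was higher in ecap-2 in 3 of 3 libraries (0.42 ± 0.10, limma, adjusted p = 0.0039). That interaction passed without WT 1 h replicate 3 (adjusted p = 0.033) or ecap-2 0 h replicate 1 (adjusted p = 0.048), and with a common total (0.68, adjusted p = 0.043). The last 213 bases of EDS5 overlap AT4G39040 on the opposite strand, listed at a mean of 45.3 FPKM, and whether the counting used strand is not given in the sources used here, so the level of EDS5 is uncertain.

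PBS3 (AT5G13320; chromosome 5, 4267456 to 4271064), the enzyme after EDS5 in the route, was near the lower end of the scale. It was between 0.0159 and 0.133 FPKM in the WT libraries. In ecap-2 it was listed at 0 in 3 libraries and reached 0.212 FPKM in 1 library at 0 h. The groups overlapped throughout, and without the filter on low values no comparison passed the threshold. Of the 3 synthesis and export members, ICS1 and EDS5 thus lay between 4.96 and 44.2 FPKM over the 18 libraries, and PBS3 below 1 FPKM.

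**Figure D1:**
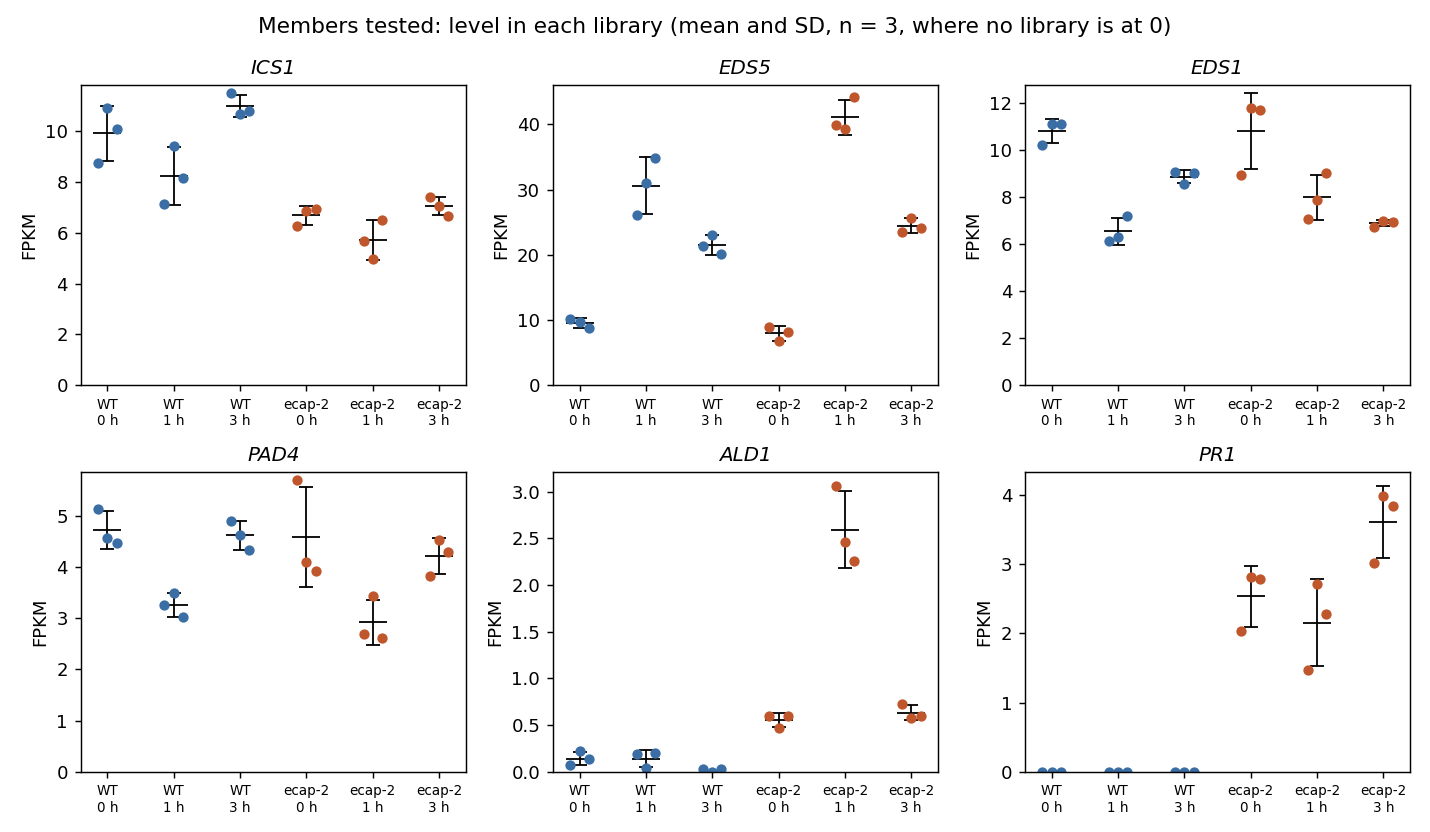
Level in FPKM of the 6 tested members in each library (points: WT blue, ecap-2 orange; 3 libraries per group), with the group mean and SD as black bars where no library is at 0. ICS1 is lower in ecap-2 at every time, EDS5 peaks at 1 h in both genotypes, ALD1 reaches 2.26 to 3.06 FPKM only in ecap-2 at 1 h, and PR1 is at 0 in the 9 WT libraries.

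EDS1 (AT3G48090; chromosome 3, 17755329 to 17758147), the shared partner in immune complexes with PAD4 or SAG101, fell on JA in both genotypes. In WT its level was 10.2, 11.1 and 11.1 FPKM at 0 h, 6.12, 6.31 and 7.18 FPKM at 1 h, and 9.05, 8.53 and 9.02 FPKM at 3 h. In ecap-2 it was 8.92, 11.8 and 11.7 FPKM at 0 h, 7.08, 7.85 and 9.01 FPKM at 1 h, and 6.74, 6.98 and 6.95 FPKM at 3 h. WT was lowest at 1 h and ecap-2 at 3 h, where the ecap-2 libraries lay below those of WT; the highest ecap-2 library at 1 h overlapped the lowest at 0 h. The fall at 1 h was -0.65 ± 0.10 in WT and -0.39 ± 0.10 in ecap-2 (limma, adjusted p = 5.6e-05 and 0.0048), and at 3 h -0.57 ± 0.10 in ecap-2 (limma, adjusted p = 0.00014). In WT the level at 3 h was -0.26 ± 0.10 against 0 h (limma, adjusted p = 0.043), a call lost on leaving out any of several single libraries (adjusted p up to 0.12). From 1 h to 3 h EDS1 rose in WT by 0.39 ± 0.10 (limma, adjusted p = 0.0062), while the ecap-2 value was -0.18 ± 0.10 (limma, adjusted p = 0.15; -0.34 and 0.013 with a common total). At 3 h ecap-2 was lower than WT by -0.32 ± 0.10 (limma, adjusted p = 0.0097, or 0.054 with quantile normalization). The difference at 1 h had the other sign, 0.25, and did not pass (limma, adjusted p = 0.051). It passed with a pseudocount of 0.1 (0.28, adjusted p = 0.048), quantile normalization (0.34, adjusted p = 0.0082) and a replicate block (0.25, adjusted p = 0.024), and in 4 of 18 fits without 1 library. A close copy, EDS1B, lies beside EDS1, was listed at 0.534 ± 0.213 FPKM (SD, n = 18) and could share reads with it, so the split between them is uncertain.

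PAD4 (AT3G52430; chromosome 3, 19431095 to 19434450), the EDS1 partner of basal resistance, dipped at 1 h and returned by 3 h. In WT it was 5.14, 4.56 and 4.47 FPKM at 0 h, 3.26, 3.5 and 3.02 FPKM at 1 h, and 4.9, 4.62 and 4.33 FPKM at 3 h. In ecap-2 it was 5.7, 4.1 and 3.93 FPKM, then 2.7, 3.43 and 2.62 FPKM, then 3.83, 4.52 and 4.29 FPKM. In both genotypes all 3 libraries at 1 h were below those at 0 h and at 3 h, and the genotypes overlapped at every time. The change at 1 h was -0.43 ± 0.11 in WT and -0.50 ± 0.11 in ecap-2 (limma, adjusted p = 0.0075 and 0.0024). The rise from 1 h to 3 h was 0.40 ± 0.11 in WT (limma, adjusted p = 0.014; 0.055 without WT 1 h replicate 3 and 0.057 without WT 3 h replicate 1) and 0.42 ± 0.11 in ecap-2 (limma, adjusted p = 0.0079; 0.27 and 0.066 with a common total).

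ALD1 (AT2G13810; chromosome 2, 5768417 to 5772266), the first enzyme of the pipecolic acid branch, was higher in ecap-2 and rose there on JA. In WT it was listed at 0.0716, 0.22 and 0.134 FPKM at 0 h, 0.188, 0.0356 and 0.2 FPKM at 1 h, and 0.0263, 0 and 0.0262 FPKM at 3 h. In ecap-2 it was 0.593, 0.464 and 0.598 FPKM at 0 h, 3.06, 2.46 and 2.26 FPKM at 1 h, and 0.723, 0.577 and 0.594 FPKM at 3 h. Every ecap-2 library was above every WT library, and the 1 h libraries of ecap-2 stood apart from all others. The ecap-2 mean at 1 h was 4.70 times that at 0 h and 18.4 times that of WT at 1 h. On the log2(FPKM + 1) scale, which understates changes at such levels, ecap-2 rose by 1.21 ± 0.11 at 1 h and returned by -1.13 ± 0.11 from 1 h to 3 h (limma, adjusted p = 1.1e-07 and 6e-07). The WT change at 1 h was 0.00 ± 0.11. The responses of the genotypes at 1 h differed by 1.21 ± 0.15 (limma interaction, adjusted p = 0.0022), and leaving out any 1 library gave 1.12 to 1.28 with adjusted p of 0.0027 to 0.0089. ALD1 reached 1 FPKM only in the 3 ecap-2 libraries at 1 h, so it was tested only because it was high there; without the filter the difference was 1.21 (adjusted p = 0.0003). With a pseudocount of 0.1 in place of 1 that difference was 2.09 and no longer passed (adjusted p = 0.11). The genotypes differed by 0.44 ± 0.11 at 0 h, 1.65 ± 0.11 at 1 h and 0.68 ± 0.11 at 3 h (limma, adjusted p = 0.0029, 1.2e-08 and 4.7e-05), and by 1.47, 3.56 and 2.64 with the pseudocount of 0.1. With that pseudocount the lower WT level at 3 h than at 0 h also passed (adjusted p = 0.026).

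FMO1 (AT1G19250; chromosome 1, 6650476 to 6653195), which turns pipecolic acid into NHP, stayed below 1 FPKM. It was 0.0155 to 0.11 FPKM in the WT libraries and 0 to 0.213 FPKM in those of ecap-2, with 2 ecap-2 libraries listed at 0. The groups overlapped, and without the filter no comparison passed the threshold, with a difference between genotypes of 0.06 ± 0.04 on average over times (limma, adjusted p = 0.22).

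**Figure D2:**
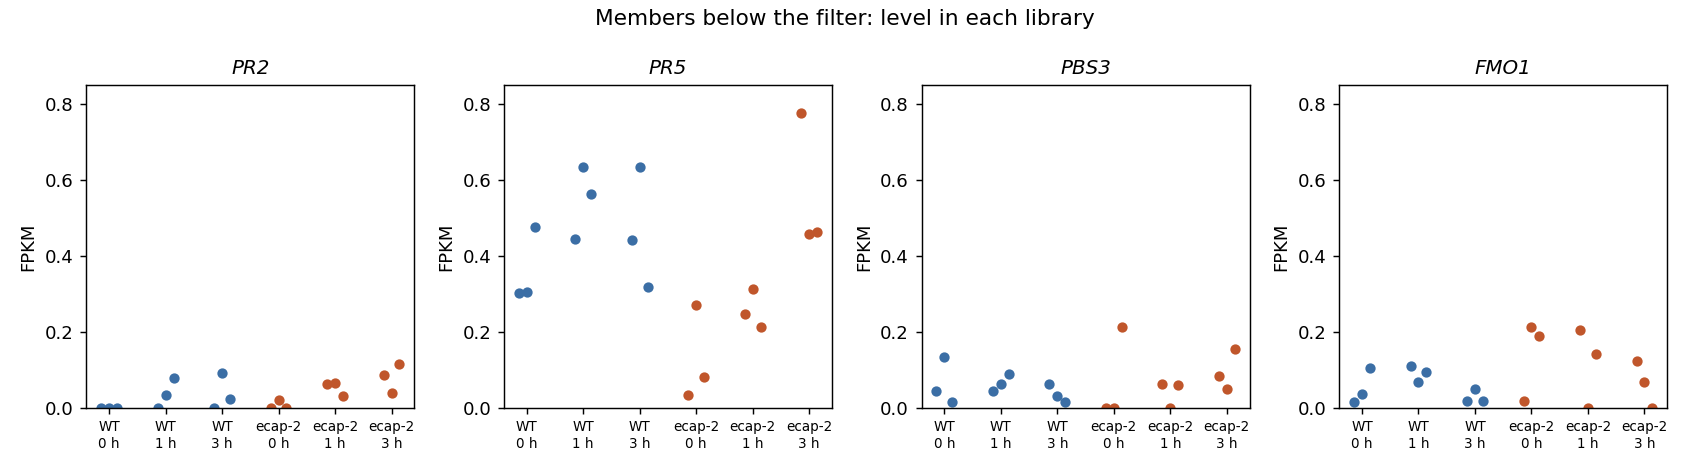
Level in FPKM of the 4 members below the filter in each library (points: WT blue, ecap-2 orange; 3 libraries per group), on 1 linear scale. PR5 lies between 0.0326 and 0.775 FPKM; PR2, PBS3 and FMO1 reach at most 0.213 FPKM.

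PR1 (AT2G14610; chromosome 2, 6241640 to 6242541), the usual marker of SA signalling, was listed at 0 in all 9 WT libraries. In ecap-2 it was 2.03, 2.81 and 2.78 FPKM at 0 h, 1.47, 2.72 and 2.28 FPKM at 1 h, and 3.02, 3.98 and 3.84 FPKM at 3 h. The genotypes did not overlap at any time, and PR1 was present in ecap-2 before JA. Since the tables hold no counts, a 0 gives no upper limit for WT and no fold is given. On the log2(FPKM + 1) scale the genotypes differed by 1.82 ± 0.14 at 0 h, 1.64 ± 0.14 at 1 h and 2.20 ± 0.14 at 3 h (limma, adjusted p = 5.3e-08, 1.8e-07 and 4e-09). With WT at 0 these sizes are set by the pseudocount, and with 0.1 in place of 1 they were 4.71, 4.46 and 5.20. The fit shared 1 spread over all groups, and the 9 WT libraries at 0 added none to it. The SE and p-values of PR1, here and below, therefore understate the spread among ecap-2 libraries. Within ecap-2, PR1 rose from 1 h to 3 h by 0.56 ± 0.14 (limma, adjusted p = 0.0035). The rise from 0 h to 3 h, 0.38 ± 0.14 (limma, adjusted p = 0.029), was lost without ecap-2 0 h replicate 1 (0.13), ecap-2 3 h replicate 2 (0.11) or replicate 3 (0.084), with a common total (0.24, adjusted p = 0.17) and with a pseudocount of 0.1 (adjusted p = 0.14). Among the 22209 genes listed, PR1 was the only 1 at 0 in all libraries of a genotype and at least 1 FPKM in all libraries of the other, by a rule chosen after its values were seen.

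PR2 (AT3G57260; chromosome 3, 21188397 to 21189967), a beta-1,3-glucanase, did not share that pattern. It was at 0 in 5 WT and 2 ecap-2 libraries, and the highest values were 0.0904 FPKM in WT and 0.116 FPKM in ecap-2. Without the filter no comparison of PR2 passed the threshold. PR5 (AT1G75040; chromosome 1, 28177670 to 28179022), a thaumatin-like protein, was 0.301, 0.305 and 0.475 FPKM in WT at 0 h, 0.445, 0.633 and 0.563 FPKM at 1 h, and 0.443, 0.635 and 0.317 FPKM at 3 h. In ecap-2 PR5 was 0.0326, 0.271 and 0.0815 FPKM at 0 h, 0.248, 0.314 and 0.212 FPKM at 1 h, and 0.775, 0.457 and 0.463 FPKM at 3 h. PR5 was thus lower in ecap-2 than in WT at 0 and 1 h, where the genotypes did not overlap, and overlapped with it at 3 h. In a fit without the filter the difference of PR5 was -0.27 ± 0.10 at 0 h and -0.30 ± 0.10 at 1 h (limma, adjusted p = 0.042 and 0.032), and PR5 rose in ecap-2 from 0 h to 3 h by 0.47 ± 0.10 (limma, adjusted p = 0.0014). PR1 and PR5 therefore differed between the genotypes in opposite directions at 0 and 1 h.

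**Figure D3:**
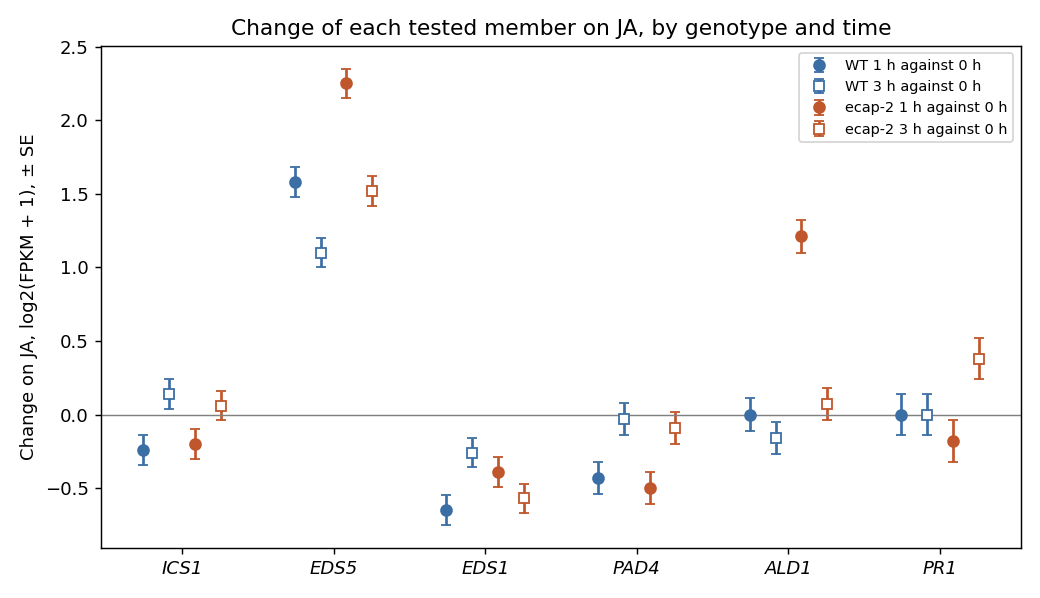
Change of each tested member from 0 h on the log2(FPKM + 1) scale with its SE, for WT (blue) and ecap-2 (orange) at 1 h (filled circles) and 3 h (open squares). EDS5 rises in both genotypes, EDS1 and PAD4 fall at 1 h in both, and ALD1 rises by 1.21 at 1 h in ecap-2 while WT stays at 0.00.

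The calls of the 6 tested members on JA are given here beside the share of all tested genes called. At 1 h EDS5 rose and EDS1 and PAD4 fell in WT, where 33.9% of all tested genes changed; in ecap-2, where 33.6% changed, the same 3 were called the same way and ALD1 rose as well. At 3 h EDS5 rose and EDS1 fell in both genotypes, and PR1 rose in ecap-2, against backgrounds of 41.5% in WT and 45.2% in ecap-2. From 1 h to 3 h, 4 tested members changed in WT and 5 in ecap-2, against 29.0% and 40.6% of all tested genes. Comparisons within a genotype share its 0 h or 1 h libraries.

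Between the genotypes, PR1 and ALD1 were higher and ICS1 lower in ecap-2 at all 3 times, against 44.2% of tested genes called at 0 h, 39.9% at 1 h and 57.5% at 3 h. EDS5 was also higher at 1 h, and EDS1 lower at 3 h. Averaged over times, where 68.7% of tested genes were called, the differences were 1.88 ± 0.08 for PR1, 0.92 ± 0.06 for ALD1 and -0.51 ± 0.06 for ICS1 (limma, adjusted p = 5.9e-12, 1.4e-09 and 8.1e-07). PR1 and ALD1 passed the filter only through ecap-2 libraries, so a difference between genotypes was built into their being tested, as was the rise of ALD1 at 1 h. The JA responses differed between genotypes for 0.314% of tested genes at 1 h and 2.42% at 3 h; ALD1 at 1 h was the member among them, and no member was at 3 h. With 6 members tested, these counts are not a rate for the pathway.

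Over the 18 libraries, ICS1 ran against PR1 (Pearson r = -0.77) and ALD1 (r = -0.82), and PR1 and ALD1 ran together (r = 0.65). EDS5 ran against EDS1 (r = -0.78) and PAD4 (r = -0.69), and EDS1 with PAD4 (r = 0.42). These values describe libraries that fall into 6 groups, so they follow the group differences given above. The tested genes with the patterns most like each member over the 18 libraries were FAMT (r = 0.991), AT5G60280 and AT3G22250 for EDS5, AT5G39120 (r = 0.985), AT1G75945 and CYSD2 for PR1, and GolS7 (r = 0.937), RHA1 and AT4G20320 for ALD1. For ICS1 they were AT3G58820 (r = 0.955), AT3G49140 and emb2458, for EDS1 AT5G36000 (r = 0.935), TET8 and HSFA7A, and for PAD4 PLC1 (r = 0.893), GER3 and GATA5. No other member was among them.

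The other genes of the pathways, 58 in 8 lists, placed the members in context; 56 were listed and 42 tested. At 1 h, 12 of the 42 rose and 9 fell in WT, and 12 rose and 11 fell in ecap-2. Of all tested genes, 33.9% changed in either direction in WT (3080 rose and 2970 fell) and 33.6% in ecap-2 (2959 rose and 3025 fell). Averaged over times, 8 were higher and 25 lower in ecap-2, with a median difference of -0.245, or 13 higher and 18 lower with quantile normalization and 6 and 28 with a common total. For that average, here and for the single lists below, the background was 33.6% higher and 35.1% lower of all tested genes. Its median was 0.00.

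Among other synthesis genes, ICS2, the minor isochorismate synthase, fell at 1 h by -0.73 ± 0.20 in WT and -0.56 ± 0.20 in ecap-2 (limma, adjusted p = 0.0083 and 0.037). EPS1, which helps break the PBS3 conjugate down to SA, rose by 0.91 ± 0.17 in WT and 0.65 ± 0.17 in ecap-2 (limma, adjusted p = 0.00043 and 0.0065). The fall of ICS2 was lost without WT 0 h replicate 3 (-0.57, adjusted p = 0.051) in WT, and in ecap-2 without 0 h replicate 2 or 3 or any 1 of the 1 h libraries (-0.60 to -0.37, adjusted p = 0.058 to 0.18). ICS2 and EPS1 were lower in ecap-2 on average, by -0.46 ± 0.11 and -0.31 ± 0.10 (limma, adjusted p = 0.0017 and 0.009), though EPS1 did not pass with quantile normalization (-0.18, adjusted p = 0.097). EDS5H, the homologue of EDS5, was higher by 0.20 ± 0.04 (limma, adjusted p = 0.00015), a call lost with a common total (0.05, adjusted p = 0.12).

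Of 6 tested genes of SA and NHP turnover, 2 rose and 1 fell at 1 h in WT, and 2 rose and 3 fell in ecap-2. The share of all tested genes changed was 33.9% in WT and 33.6% in ecap-2. DLO1, an SA hydroxylase also known as S3H, went in WT from 0.439 ± 0.192 FPKM at 0 h to 8.94 ± 1.4 FPKM at 1 h and 1.24 ± 0.248 FPKM at 3 h, and in ecap-2 from 0.87 ± 0.306 FPKM to 19.1 ± 1.26 FPKM and 4.06 ± 1.4 FPKM (SD, n = 3). Its mean at 1 h was 20.4 times that at 0 h in WT and 22.0 times in ecap-2 (limma, adjusted p = 1e-09 and 5.2e-11). UGT76B1, which glucosylates NHP and SA, rose by 1.73 ± 0.09 in WT and 1.90 ± 0.09 in ecap-2 at 1 h and was lower in ecap-2 on average by -0.95 ± 0.05 (limma, adjusted p = 1.9e-10, 4.5e-11 and 2.1e-10). UGT74F2, an SA glucosyltransferase, fell at 1 h by -0.93 ± 0.15 in WT and -0.63 ± 0.15 in ecap-2 and was also lower in ecap-2 (-0.91 ± 0.08; limma, adjusted p = 9.9e-05, 0.0028 and 9.7e-08). Averaged over times, 1 of the 6 was higher and 3 were lower in ecap-2 (1 and 5 with a common total).

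The helper immune receptors ADR1, ADR1-L1 and ADR1-L2, which act with EDS1 and PAD4, fell at 1 h in both genotypes alongside them. The changes were -0.59, -0.42 and -0.78 in WT and -0.80, -0.61 and -0.90 in ecap-2 (limma, adjusted p up to 0.00095). NRG1.1, the helper that acts with EDS1 and SAG101, did not pass at 1 h in either genotype but was lower in ecap-2 by -0.70 ± 0.07 (limma, adjusted p = 1.1e-07).

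Of 11 tested perception genes, 2 were higher and 6 lower in ecap-2 on average; with quantile normalization 5 were higher, TGA2, TGA6 and NIMIN2 in addition. The SA receptors NPR3 and NPR4, which repress SA-responsive genes, were lower by -0.72 ± 0.10 and -1.08 ± 0.09, and NIMIN3, an inhibitor that binds NPR1, by -1.37 ± 0.08 (limma, adjusted p = 9.3e-06, 3.3e-08 and 3.1e-10). NPR1, the receptor that activates PR genes, was higher by 0.28 ± 0.04 (limma, adjusted p = 2.4e-05). NIMIN3 was 15.4 ± 3.6 FPKM in WT and 5.22 ± 0.681 FPKM in ecap-2 (SD, n = 9).

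Among regulators of SA synthesis, 0 were higher and 5 of 7 lower in ecap-2 on average, with 2 of 7 lower under quantile normalization, where WRKY50, WRKY53 and WRKY70 no longer passed, and 3 to 5 without 1 library. The smallest p was that of CBP60a, a negative regulator of immunity, lower by -0.46 ± 0.04 (limma, adjusted p = 1.4e-07). WRKY70 fell at 1 h by -0.90 ± 0.16 in WT and -0.50 ± 0.16 in ecap-2, and WRKY18 rose by 1.45 ± 0.17 and 1.38 ± 0.17 (limma, adjusted p = 0.00034, 0.025, 5.6e-06 and 1e-05). The fall of WRKY70 in ecap-2 was lost without 0 h replicate 2 (adjusted p = 0.07), 0 h replicate 3 (0.11) or 1 h replicate 1 (0.12). SARD1 and CBP60g, the activators of ICS1, ALD1 and EDS5 in infected leaves, were below the filter, at 0.633 ± 0.174 and 0.736 ± 0.317 FPKM (SD, n = 18). At 0 h CBP60g was 0.834, 0.862 and 0.782 FPKM in WT and 0.981, 1.6 and 1.3 FPKM in ecap-2. At 1 h it was 0.326, 0.498 and 0.262 FPKM in WT and 0.727, 0.545 and 0.682 FPKM in ecap-2. For CBP60g the genotypes overlapped at 3 h only, and for SARD1 at every time. These differences were not tested. MYC2, the JA transcription factor, rose by 2.44 ± 0.13 in WT and 2.23 ± 0.13 in ecap-2 at 1 h, and ANAC055, which acts below MYC2 against ICS1, by 1.26 ± 0.15 and 0.74 ± 0.15 (limma, adjusted p = 1.7e-10, 5.1e-10, 5.2e-06 and 0.0012).

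GRX480, an SA-inducible glutaredoxin that binds TGA factors, rose on JA as far as DLO1 and did not come back. It went from 0.901 ± 0.525 to 17.4 ± 3.16 and 18.4 ± 0.566 FPKM in WT and from 1.2 ± 0.0397 to 23.6 ± 0.545 and 31.2 ± 4.2 FPKM in ecap-2 (SD, n = 3). The log2 change at 1 h was 3.30 ± 0.16 in WT and 3.49 ± 0.16 in ecap-2 (limma, adjusted p = 5.2e-11 and 2.5e-11). PR3 and PR4, PR genes of the JA and ethylene side, were lower in ecap-2 by -1.05 ± 0.08 and -0.33 ± 0.05 (limma, adjusted p = 5.9e-09 and 2.2e-05), opposite in sign to PR1.

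**Figure D4:**
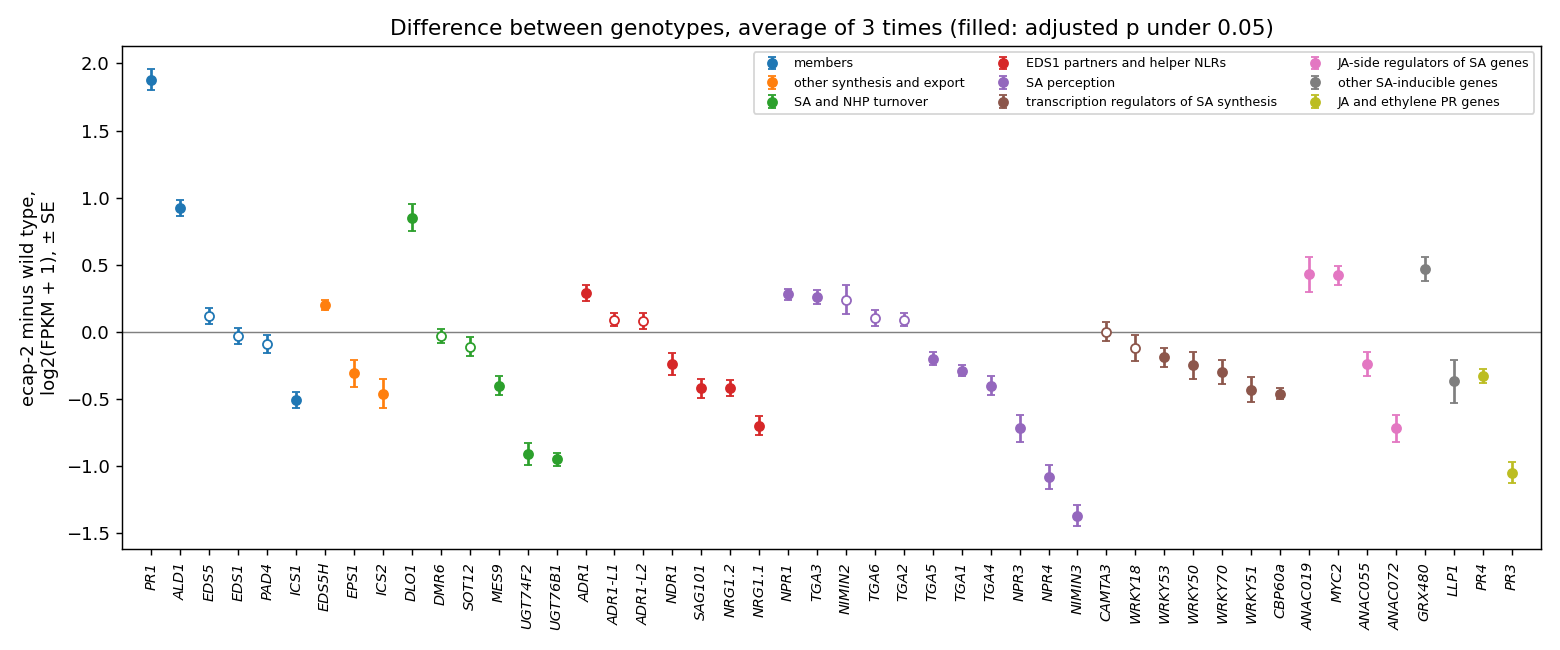
Difference between ecap-2 and WT, averaged over the 3 times, on the log2(FPKM + 1) scale with its SE, for the 6 tested members and the 42 tested genes of the other lists (colours: lists; filled: adjusted p under 0.05). PR1, ALD1 and DLO1 are highest in ecap-2, and NIMIN3, NPR4 and PR3 are lowest.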

How the data were processed

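RNA of whole Arabidopsis seedlings was sequenced on an Illumina HiSeq instrument, per the labels' protocols. The deposited tables, 1 per library, give FPKM per gene, made by the authors with TopHat2 and Cufflinks on TAIR10, per the submitters' processing notes; versions and strand use are not given in the sources used here. The tables hold no counts, so the depth is unknown and no counting interval is given.

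Genes at 1 FPKM or more in at least 3 of 18 libraries (17835 of 22209) were tested on log2(FPKM + 1) with limma 3.58.1 in R 4.3.3: 6 group means, 12 comparisons, moderated variances with trend and robust settings, and Benjamini-Hochberg adjustment over all tested genes at 0.05, two-sided. The fit was tested on simulated data. Groups came from the labels. Alternatives were a pseudocount of 0.1, no filter, a common total, quantile normalization, a replicate block and leaving out each library. Names and positions came from RefSeq's TAIR10.1 gene table, which matched 22122 genes. The named genes were the members, from each other list up to 4 of smallest p among those called (otherwise the 2 most abundant), and up to 3 nearest patterns per tested member. Not every called gene of those lists is named. SARD1, CBP60g, EDS1B and the neighbours of PR1 and ALD1 were added after their values were seen. SARD4 and UGT74F1 were not analysed here, and 1 upstream window is not reported here. Members and lists were chosen with earlier results of these data known.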

Additional observations from a re-analysis of the deposited data

Results flagged for a closer look

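The responses of the genotypes to JA differed for 3 of the genes followed, by a test of the difference itself. For ALD1 at 1 h the response was larger in ecap-2 by 1.21 on the log2(FPKM + 1) scale (limma interaction, adjusted p = 0.0022). ALD1 reached the filter only through the 3 ecap-2 libraries at 1 h, so this direction was built into its being tested; a fit without the filter gave 1.21 (adjusted p = 0.0003), and a pseudocount of 0.1 gave 2.09 (adjusted p = 0.11). For NDR1, a membrane-anchored immune regulator, the response at 3 h differed by -0.72 ± 0.18 (limma interaction, adjusted p = 0.049): in WT it went from 1.36 ± 0.228 to 3.51 ± 0.264 FPKM, in ecap-2 from 1.48 ± 0.208 to 1.88 ± 0.292 FPKM (SD, n = 3). This call was lost in 13 of 18 fits that left out a library, with adjusted p up to 0.13. It was also lost with a pseudocount of 0.1 (adjusted p = 0.068), without the filter (0.058) and with quantile normalization (0.05 after rounding). For PR4 at 3 h the difference was 0.55 ± 0.12 (limma interaction, adjusted p = 0.03): WT went from 55.1 ± 6.02 to 43.3 ± 4.09 FPKM and ecap-2 from 35.2 ± 2.75 to 41 ± 3.58 FPKM (SD, n = 3). The PR4 call was lost in 7 of 18 fits that left out a library, with adjusted p up to 0.093.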

How the results depend on the processing

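Of 1656 values of single members under the alternatives, 1596 kept direction and side of the threshold, 31 no longer passed, 29 newly passed and 0 reversed. The calls of PR1, ALD1 and ICS1 between genotypes held at each time under the 5 other settings and the 18 fits without 1 library. The number of members called for the difference of 1 h responses was 1, against 0 with a pseudocount of 0.1. It was 2 with a common total (EDS5 in addition) and 1 to 2 without 1 library. For WT 3 h against 0 h it was 2, against 1 without the filter, 3 with a pseudocount of 0.1 (ALD1 in addition) and 1 to 2 without 1 library. For the average of times it was 3, against 5 with a common total, where PAD4 (-0.22, adjusted p = 0.0084) and EDS1 (-0.16, adjusted p = 0.025) were added. For the difference of 3 h responses it was 0, and 0 to 1 without 1 library (EDS1, -0.44, adjusted p = 0.037, without ecap-2 0 h replicate 1). The cause of these changes was not tested.

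Over all tested genes, the difference of 1 h responses was called for 56, 32 with a pseudocount of 0.1 and 22 to 56 without 1 library. That of 3 h responses was called for 432, 778 with a common total, 789 with the replicate block and 134 to 1264 without 1 library. A common total shifted the median of all genes by -0.16 in ecap-2 from 0 h to 3 h, and between genotypes by -0.11 at 0 h, -0.08 at 1 h and -0.20 at 3 h, and the higher share of calls fell from 51.0% to 25.9%, from 47.9% to 28.2%, from 45.0% to 28.4% and from 50.2% to 24.1%. It fell likewise from 51.4% to 22.9% in ecap-2 from 1 h to 3 h (median shift -0.15), from 51.6% to 39.2% in WT from 0 h to 3 h, from 49.0% to 29.0% for the average of times (median shift -0.13), and from 53.5% to 22.1% for the difference of 3 h responses. Under it EDS5H at 3 h between genotypes reversed to -0.01, and TGA1 in ecap-2 from 0 h to 3 h to -0.18, as with quantile normalization (-0.18).

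Libraries of the same replicate number paired in some comparisons only. The 27 correlations of their deviations ran from -0.16 to 0.32, and 14 of 27 were best with their own number. In 1 of 9 comparisons, WT at 0 h with WT at 1 h, every pair was over 0.1 (0.16, 0.25 and 0.13). Every pair was best with its own number there and between genotypes at 1 h (0.12, 0.06 and 0.20). With the replicate block, the member called in addition was EDS1 between genotypes at 1 h (0.25, adjusted p = 0.024). That difference also passed with a pseudocount of 0.1 and with quantile normalization.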

Other observations

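The neighbours of PR1 and ALD1 on chromosome 2, which lie 473.2 kb apart, were looked at after the values of both were seen. Of the genes beside PR1, LURP1, an SA-inducible gene of defence against an oomycete, was at 0 in all WT libraries. In ecap-2 LURP1 was 0.232, 0.185 and 0.58 FPKM at 0 h, 0, 0.0337 and 0 FPKM at 1 h, and 0 in all libraries at 3 h, where PR1 was highest. PRB1, a basic PR1 relative, was at 0 to 0.243 FPKM in WT and 0.277 to 0.892 FPKM in ecap-2. Neither LURP1 nor PRB1 reached the filter. XTH10, on the other side of PR1, was lower in ecap-2 by -0.15, and TBL13 was higher by 0.34. AT2G14660 was not called (0.06), and SUC8 was not tested (mean of 0.0262 FPKM in WT and 0.0119 FPKM in ecap-2). Of the 3 genes on each side of ALD1, 3 were called higher in ecap-2 on average over times, where 33.6% of all tested genes were. They were XYP2, an arabinogalactan-type protein, by 1.21 (27.1 to 41.8 FPKM in WT, 57.6 to 113 FPKM in ecap-2), and the receptor kinases SERK4 by 0.54 and SERK5 by 0.45. AT2G13690 was lower by -0.22, AT2G13840 was not called (0.11) and AT2G13900 was not tested.

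BSMT1, the methyltransferase that makes methyl salicylate, was listed above 0 only in WT at 1 h, at a mean of 0.0592 ± 0.0202 FPKM (SD, n = 3), and at 0 in the other 15 libraries.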
